A study of Mus musculus with 2 samples.

Results

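The genes described here make up a hand-picked set of the piRNA pathway in mouse male germ cells, and they were followed through spermatogenesis in wild-type (WT) and Tex13a knock-out (KO) testes by single-cell RNA-seq. The set was chosen by name and lists 10 genes: Piwil1, Piwil2, Tdrd1, Tdrd5, Tdrd6, Tdrd7, Tdrd9, Mael, Ddx4 and Mov10l1. Of these, 6 could be tied to 1 row of the count matrix and are analysed, among 5476 such symbols of 25065 in the series. The symbols Piwil2, Tdrd5, Tdrd7 and Mov10l1 could stand for 19, 24, 13 and 13 rows and are not analysed here. The symbol list is shorter than the matrix, and the way rows were matched is described in the processing notes.

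Both libraries came from testes of male C57BL/6 mice (C57BL/6N in the methods of the study) of 10 to 12 weeks. In each, 3 testes from 3 mice were pooled, digested with collagenase I and sequenced as 1 library, so there is no replicate of either genotype. In KO mice, all reading frames of Tex13a, an X-linked gene, were deleted in the germline with CRISPR/Cas9, and WT mice carried the intact gene. The Tex13a symbol itself could stand for 7 rows, so its level could not be used to check the labels.

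piRNAs are small RNAs that guide PIWI proteins to transposon transcripts and other targets in the germ line. In the testis, the pathway works in waves: before birth and in spermatogonia it acts on transposons, and from the pachytene stage of meiosis the PIWI protein MIWI carries a very abundant class of pachytene piRNAs. Tudor domain proteins bind methylated arginines of PIWI proteins and hold them in cytoplasmic granules, first between mitochondria and later in the chromatoid body of round spermatids. RNA helicases and Mael, a protein with an HMG-like domain, act beside them.

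By role, the analysed genes are the PIWI gene Piwil1 (MIWI), the Tudor domain genes Tdrd1, Tdrd6 and Tdrd9, the DEAD-box helicase Ddx4 (mouse Vasa homologue) and Mael. Tdrd9 joins a Tudor domain to a helicase domain. In the GENCODE annotation of GRCm38, the build the authors call mm10, Piwil1 (ENSMUSG00000029423.10) lies on the plus strand at chr5:128702524-128755474 and Tdrd1 (ENSMUSG00000025081.13) on the plus strand at chr19:56826209-56870012. Tdrd6 (ENSMUSG00000040140.15) lies on the minus strand at chr17:43615335-43630299 and Tdrd9 (ENSMUSG00000054003.13) on the plus strand at chr12:111971559-112068854. Mael (ENSMUSG00000040629.8) lies on the minus strand at chr1:166201201-166238747 and Ddx4 (ENSMUSG00000021758.14) on the minus strand at chr13:112598333-112652475. UMIs were counted over annotated genes. No exon of these 6 genes overlaps an exon of another annotated gene.

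The promoters of Piwil1 and Mael are shown because these genes had the narrowest and the broadest course of the 6 described next. They run from 250 bases before to 50 bases after the RefSeq start (GRCm38.p6), Piwil1 on the plus strand of chr5:128735996-128736295 and Mael on the minus strand of chr1:166238695-166238994, and are written in the direction of transcription. The Piwil1 window lies inside the GENCODE span of the gene, which begins at chr5:128702524, and so belongs to a start downstream of that outer end. Whether this start is also that of a GENCODE transcript was not checked. Capitals mark matches to 6-base MYB motifs on either strand, searched because A-MYB (Mybl1) is known as a regulator of pachytene piRNA genes. The motifs were CAACTG and, as another form, CAACGG. Forms that begin with T, TAACTG as well as TAACGG, were counted too.
Piwil1: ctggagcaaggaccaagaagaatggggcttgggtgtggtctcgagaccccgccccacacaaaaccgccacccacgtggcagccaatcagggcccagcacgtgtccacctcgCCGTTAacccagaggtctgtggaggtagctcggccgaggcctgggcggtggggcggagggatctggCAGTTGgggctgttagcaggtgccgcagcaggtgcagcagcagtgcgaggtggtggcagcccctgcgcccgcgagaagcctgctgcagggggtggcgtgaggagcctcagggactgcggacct
Mael: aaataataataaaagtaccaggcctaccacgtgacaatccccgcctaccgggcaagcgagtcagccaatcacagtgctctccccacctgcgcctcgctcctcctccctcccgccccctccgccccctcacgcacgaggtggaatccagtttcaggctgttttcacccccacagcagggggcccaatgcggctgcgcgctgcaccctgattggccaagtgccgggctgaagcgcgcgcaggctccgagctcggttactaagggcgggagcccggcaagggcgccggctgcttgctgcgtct
The Piwil1 window held 2 matches, both on the opposite strand and beginning 139 and 73 bases before the start (positions -139 and -73). The table holds 12 promoters of 8 of the 10 genes (Tdrd6 and Piwil2 have no entry), and 5 of these promoters, of the 4 genes Piwil1, Tdrd5, Tdrd7 and Mov10l1, held a match, beside 28.3% of all 32851 promoters. At least 2 matches were found in 5.09% of all. Among the 5 analysed genes with an entry, Piwil1 alone held one. A match is only a string of letters, and its absence from the other windows says nothing about the factor. The windows of Piwil1, Mael and Ddx4 were GC-rich (67.7%, 65.0% and 72.0% GC, with 18, 24 and 38 CpG pairs), as against a median of 52.7% GC and 7 CpG pairs over all promoters, and that of Tdrd9 was closer to it with 55.7% and 10. Tdrd1 has 3 windows, with 60.3%, 64.3% and 45.0% GC and 20, 25 and 3 CpG pairs, the last of them below the median.

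From 5170 cells of WT, 45568532 UMIs (unique molecular identifiers, 1 per captured transcript) were counted, and from 7238 cells of KO 67734689, with medians of 6508 and 6714.5 UMIs per cell and no shared cell barcode. The authors' 13 clusters run from spermatogonia (Sg) through spermatocytes (Sc1, Sc2) and a mixed cluster (Sd1) to spermatids (Sd2 to Sd10), with 99 to 1057 cells each and the fewest in Sc1 (130 WT and 99 KO cells). Of 30 germ cell markers, each had the same highest cluster in both libraries. Kit was highest in Sg, Sycp3 in Sc1, Acrv1 in Sd4, Tnp1 in Sd8 and Prm2 in Sd10. Several listed markers peaked outside their named stage: the spermatogonial markers Dazl and Stra8 were highest in Sc1, the spermatogonial marker Dmrtb1 and the spermatocyte markers Ldhc, Spata16 and Ccna1 were highest in Sd1, and the spermatocyte marker Pgk2 in Sd10. Of 25 somatic markers, the 5 with 1 possible row were low throughout, the highest being Cd74 with 75 UMIs (59.9 CPM) in WT Sd10. The clusters were made from the same cells, so differences between clusters are described without a test. Levels are given as CPM, the share of a cluster's UMIs that fell on the gene, scaled to a total of 1000000, with exact Poisson 95% intervals that cover counting error only. Levels are not compared between genes, since whether different transcripts are counted alike was not tested. Courses are compared as percent of each gene's own highest cluster.

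Piwil1, the PIWI gene of meiotic and round cells, was nearly limited to the later spermatocytes. In Sc2 its level was 532 CPM in WT (515 to 549, 3780 UMIs) and 442 CPM in KO (430.0 to 453, 5617 UMIs). In Sd1 it was 53.5 CPM in WT and 52.8 CPM in KO, 10.1% and 11.9% of the Sc2 level. In Sc1 it was 38.2 and 34.7 CPM, in Sd2 24.1 and 16.3 CPM, and from Sd3 on no cluster of either library was above 8.23 CPM. No other cluster came near Sc2 in either library, while Sd1 and Sc1 stood next in order with intervals that overlap.

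Tdrd1, a Tudor protein known as a partner of the PIWI protein MILI, had the same peak and a second, lower level in spermatogonia. It reached 127 CPM in WT Sc2 (119 to 136) and 132 CPM in KO Sc2 (126 to 139). In Sg it was 42.6 CPM in WT (33.2 to 53.9, 70 UMIs) and 40.7 CPM in KO (31.0 to 52.5, 59 UMIs), and Sg came second in both libraries. In WT it was lower in Sc1 (16.7 CPM, 9.70 to 26.7) than in Sg, with intervals apart, so that the WT course had a dip between the 2 high clusters. In KO the Sc1 level was 33.4 CPM and its interval (21.6 to 49.3) overlapped that of Sg. From Sd1 the level went down in steps to 11.4 and 13.2 CPM in Sd4, and from Sd5 on each cluster held 1 to 16 UMIs.

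Tdrd9 was already high in spermatogonia. In Sg it stood at 127 CPM in WT (110.0 to 145) and 124 CPM in KO (107 to 144), in Sc1 at 193 and 228 CPM, and in Sc2 at 221 and 192 CPM. Sc2 was the highest cluster in WT and Sc1 in KO, and in both libraries the intervals of these 2 clusters overlap, so which of them is higher is not resolved. From there it went down to 86.9 and 89.7 CPM in Sd2, 39.3 and 35.6 CPM in Sd4 and 6.81 and 6.09 CPM in Sd7. In KO it was higher again in Sd9 (13.7 CPM, 9.55 to 19.1) than in Sd7 (4.27 to 8.44), while in WT the intervals of Sd7 to Sd10 overlap. The KO level in Sd9 is not separated from background, as given below.

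Ddx4, a germ cell helicase found in germ granules, was present from Sg on and was highest in Sd1, with 345 CPM in WT (329 to 361) and 395 CPM in KO (384 to 406). No other cluster overlapped Sd1 in either library. In Sg it was 160.2 and 200.2 CPM, in Sc2 292 and 314 CPM and in Sd3 243 and 275 CPM. It then went to 125 and 127 CPM in Sd4 and to 15.3 and 20.6 CPM in Sd5.

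Tdrd6, a Tudor protein of the chromatoid body, began later than Ddx4 and ended with it. In Sg it was 30.4 CPM in WT and 58.0 CPM in KO, and in Sc1 18.6 and 28.0 CPM. It reached 298 and 351 CPM in Sc2 and was highest in Sd1 (368 and 424 CPM), from which Sd2 (358 and 412 CPM) did not stand apart. Sd3 had 267 and 307 CPM, Sd4 126 and 124 CPM, and Sd5 20.4 and 22.8 CPM.

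Mael had the longest course. Its level stood between 844 and 942 CPM in WT and between 786 and 901 CPM in KO from Sc2 through Sd3, and the 3 clusters Sc2, Sd1 and Sd2 could not be told apart in either library. It was at least 50% of the highest level in 6 clusters and at least 10% of it in 11, in both libraries. In Sd7, where the other 5 genes were at 0.306% to 3.08% of their highest level, Mael was at 288 CPM in WT and 251 CPM in KO (30.6% and 27.9%). In Sd8 it was at 94.7 and 90.6 CPM, and in Sd10 at 56.7 CPM (44.3 to 71.5) and 58.5 CPM (47.7 to 70.9).

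**Figure D1:**
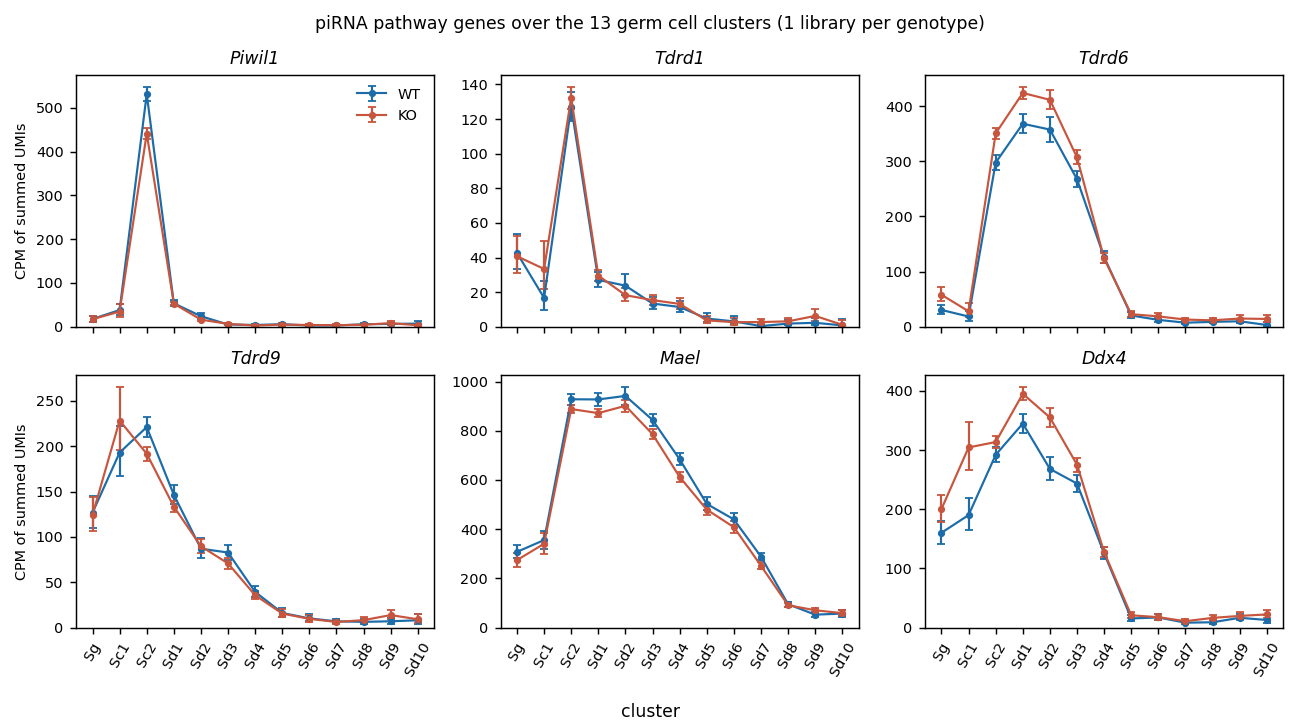
Level of each gene (CPM of summed UMIs, linear axis from 0, 1 scale per gene) over the 13 clusters in the WT (blue) and KO (red) library, with exact Poisson 95% intervals. Piwil1 and Tdrd1 have a narrow peak in Sc2, Tdrd6 and Ddx4 a broad one around Sd1, and Mael is still at 288 and 251 CPM in Sd7.

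The 6 genes therefore differed in width more than in the cluster of their highest level. At least 50% of the highest level was reached in 1 cluster by Piwil1 and by Tdrd1, in 4 by Tdrd6 and by Tdrd9, in 5 (WT) or 6 (KO) by Ddx4 and in 6 by Mael. As a description over the 13 clusters of a library, which share their cells' depth and the same clustering, Pearson r of log2(CPM + 1) was highest for Tdrd9 with Ddx4 (0.96 in WT and in KO) and for Tdrd1 with Tdrd9 (0.93 and 0.94). It was lowest for Piwil1 with Mael (0.39 and 0.45). In each library the pair order began and ended with these genes.

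The genes whose course over the 13 WT clusters was most like that of a member were named by r over the 4199 other genes with at least 500 WT UMIs. For Piwil1 these were BC049730 (r 0.97, and 0.99 in KO), 4933412L11Rik (0.97 and 0.93) and 1700006A11Rik (0.96 and 0.94), all highest in Sc2. For Tdrd1 they were Myl6 (0.98 and 0.90), Mrpl24 (0.97 and 0.95) and H2afy (0.97 and 0.94). For Tdrd6 they were Pom121l12 (0.99 and 0.98), Gm3448 (0.99 and 0.98) and 1700001G11Rik (0.99 and 0.99). For Tdrd9 they were Ccar1 (0.99 and 0.98), Ppia (0.99 and 0.99) and Psma3 (0.99 and 0.99). For Mael they were Calm3 (0.995 and 0.99), Btf3 (0.99 and 0.97) and Mtch2 (0.98 and 0.98). For Ddx4 they were Nop10 (0.998 and 0.98), Nasp (0.99 and 0.98) and Cenpw (0.99 and 0.97). No member is among the 3 nearest genes of another.

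Between Sd4 and Sd5, the members parted. Ddx4 was 8.11-fold lower in Sd5 than in Sd4 in WT (log2 -3.02, 95% counting interval -3.52 to -2.58) and 6.15-fold lower in KO (-2.62, -3.01 to -2.27). Tdrd6 was 6.14-fold lower in WT (-2.62, -3.05 to -2.23) and 5.41-fold lower in KO (-2.44, -2.81 to -2.10). Mael was only 1.36-fold lower in WT (-0.44, -0.54 to -0.35) and 1.28-fold lower in KO (-0.35, -0.44 to -0.27). Thus 2 of the 6 members, Ddx4 and Tdrd6, were at least 4-fold lower in Sd5 in both libraries, against 18% of 4754 genes in WT and 17.3% of 4805 genes in KO, and the median over all genes was a log2 difference of -0.58 in WT and -0.57 in KO. A fall of at least 4-fold was thus common between these clusters. Ratios at or below that of Ddx4 were found for 7.8% of genes in WT and 9.8% in KO. Those at or below that of Tdrd6 were found for 10.7% and 11.5%. Tdrd9 lost less (2.43-fold in WT and 2.30-fold in KO), Tdrd1 went from 50 to 13 UMIs in WT and from 79 to 12 in KO, and Piwil1 had 16 to 18 UMIs in each of the 4 groups of cells.

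In Sg and Sc1, low levels were read against transcripts that do not belong there. A level was set as percent of the gene's mean CPM over its whole library, and the same was done for 14 spermatid markers with 1 possible row (among them Acrv1, Prm1 and Tnp1), which spermatogonia are not known to express. In WT Sg these markers stood at a median of 33.9% of their library mean (12.2% to 44.5%), and in KO Sg at 44.0% (13.9% to 53.6%). Piwil1 in Sg stood at 18.6% in WT and 17.8% in KO, and Tdrd6 at 19.3% and 25.4%, below these medians and inside the marker range. Their UMIs in Sg, and those in Sc1, where Piwil1 was at 40.2% and 35.8% and Tdrd6 at 11.8% and 12.3% against marker ranges of 4.49% to 41.3% and 4.60% to 55.7%, are therefore not separated from background by this measure, and no expression is read from them. Tdrd9 in Sg stood at 155% and 143%, Tdrd1 at 144% and 111% and Ddx4 at 103% and 93.1%, above every spermatid marker in both libraries. Mael stood at 52.3% in WT, above the markers, and at 43.8% in KO, within their range, so that its level in KO Sg is not separated from background by this measure. The same held in Sc1, where Mael was at 60.5% in WT, above the markers, and at 54.4% in KO, within their range.

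**Figure D2:**
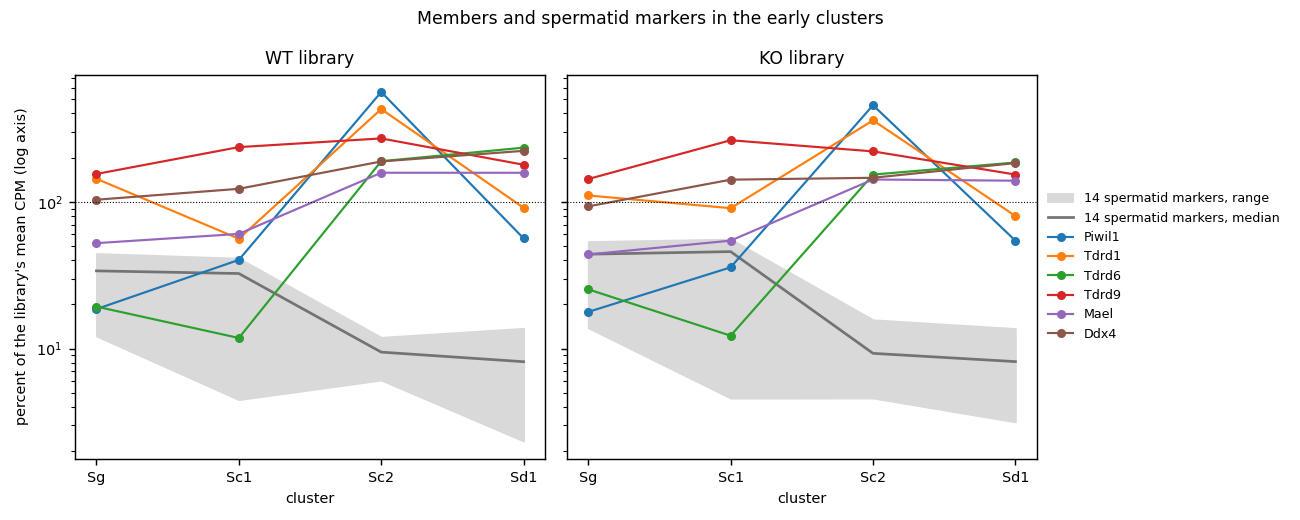
Level of each gene in Sg, Sc1, Sc2 and Sd1 as percent of its mean CPM over the library (log axis, dotted line at 100%), with the range (grey band) and median (grey line) of 14 spermatid markers. Tdrd9, Ddx4 and Tdrd1 lie above the band in Sg, and Piwil1 and Tdrd6 lie within it in Sg and Sc1 and above it in Sc2 and Sd1.

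In late spermatids the reference was the list of spermatogonial markers with 1 possible row, 6 genes, and of spermatocyte markers, 10 genes, some of which (Pgk2, Ldhc) are also used by spermatids. In Sd7 the median of the spermatogonial list was 7.25% of the library mean in WT and 7.92% in KO, and that of the spermatocyte list 6.60% and 8.03%. Piwil1 (3.07% and 3.67%), Tdrd6 (4.69% and 5.70%) and Ddx4 (5.27% and 4.96%) were below these medians, Tdrd1 was at 1.31% and 7.35%, and Tdrd9 at 8.32% and 7.01%. In KO Sd9, Tdrd9 was at 15.8%, beside medians of 18.4% for the spermatogonial and 13.8% for the spermatocyte list. Its higher level there than in KO Sd7 is thus not separated from background. Mael in Sd7 was at 49.0% and 40.2%, and in Sd8 at 16.1% and 14.5%, with medians of 6.53% and 7.21% for the spermatogonial and 9.54% and 8.82% for the spermatocyte list in Sd8. The lists spread widely, and in Sd7 the spermatogonial markers reached 37.7% in WT and 60.7% in KO and the spermatocyte markers 142% and 157%. Judged by the range, Mael was above the spermatogonial list only in WT Sd7. It was inside the spermatocyte range in both libraries. The markers above it there were Pgk2 and Ldhc (64.1% and 59.4%), which spermatids use, so that range is no background reference for Mael. Spata16 came next in the list, at 13.2% in WT and 9.50% in KO. In Sd8, where the spermatogonial markers reached 49.5% and 76.1%, Mael was inside both ranges. These tops were Kit on 5 UMIs in WT and Uchl1 on 60 UMIs in KO, and Kit was at 286% in WT Sd4. Pgk2 set the top of the spermatocyte range (182% and 209%). A place inside these ranges therefore does not decide whether Mael was at background.

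The share of cells with a UMI was compared at equal depth, after each cell had been thinned to 3000 UMIs, which left out no cell. Piwil1 was seen in 78.9% of WT Sc2 cells (75.0% to 82.4%, exact binomial interval) and 70.8% of KO Sc2 cells (67.7% to 73.7%), and in 0.714% and 1.26% of Sd7 cells. Unthinned, the Sc2 shares were 95.9% in both, and those of Sd7, where its level was below both marker medians, were 2.14% and 2.18% at median depths of 5870.5 and 5673 UMIs against 11862 and 11468 in Sc2. Mael was seen in 91.0% and 92.7% of thinned Sc2 cells and still in 54.7% and 47.5% of Sd7 cells. Tdrd9 was seen in 30.6% and 29.7% of thinned Sg cells and in 1.71% and 1.15% of thinned Sd7 cells. Over thinned Sc2 cells the variance of the UMI count divided by its mean, which is 1 for pure counting noise, was 1.225 in WT and 1.43 in KO for Piwil1, 1.485 and 1.28 for Tdrd6, 1.48 and 1.15 for Tdrd9 and 1.22 and 1.08 for Mael. These values were all above 1, the lowest being that of Mael in KO. They carry no interval, so a small excess over counting noise is not resolved. The part of a stage gradient inside Sc2 was not tested.

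KO was compared with WT within each cluster to ask whether loss of Tex13a, which the study addresses as a factor of mRNA turnover in spermatids, goes with a change of these transcripts. Each genotype has 1 library, so genotype and library cannot be told apart, and no test was made. Log2 ratios carry a prior of 1 UMI, and their exact binomial 95% intervals cover counting error only. A value was read where both libraries together held at least 10 UMIs, which held for 77 of the 78 values (Tdrd1 in Sd10 had 1 and 2 UMIs).

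From Sc2 to Sd6, no ratio with the prior of 1 UMI reached 1.5-fold, and the ratios lay between log2 -0.56 (Piwil1 in Sd2) and 0.58 (Tdrd6 in Sd6, 36 and 57 UMIs, just inside the limit). With cells thinned to 3000 UMIs, 7 values of Piwil1, Tdrd1, Tdrd6 and Ddx4 in Sd4 to Sd6 passed it, among them Tdrd1 in Sd6 with a UMI in 5 WT cells and in no KO cell. Over all clusters, 12 of the 77 values passed 1.5-fold, against 12.5% of all 59228 values of genes with 1 possible row. Of the 12, 11 were higher in KO and Piwil1 in Sd10 was lower (-1.01, -2.85 to 0.58, 9 and 6 UMIs). When cells were thinned, 22 values passed, 8 of these 12 among them. Of the 48 member values with at least 100 UMIs, 4 did, against 2.96% of 39948. The 4 were Tdrd6 in Sg and Sd7 and Ddx4 in Sc1 and Sd8, and all 12 were in Sg, Sc1 or Sd7 to Sd10. Of the 4, Tdrd6 in Sg is not separated from background, as given above, and Tdrd6 in Sd7 and Ddx4 in Sd8 (5.72% and 7.57% of the library mean) are close to or below the medians of early markers in those clusters. Thinning took Tdrd6 to -0.19 in Sg and to 0.26 in Sd7, below 1.5-fold. The limit of 1.5-fold counts values, not changed genes.

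By cluster, 1 of 6 members passed 1.5-fold in Sg, against 12.6% of genes, and 2 of 6 in Sc1, against 15.8%. None of the 6 did in Sc2 (10.4% of genes), Sd1 (8.18%), Sd2 (8.04%), Sd3 (6.09%), Sd4 (6.87%), Sd5 (11.9%) or Sd6 (13.3%). In Sd7 and in Sd8 2 of 6 did, against 13.6% and 13.7% of genes. In Sd9 2 of 6 did, against 21.1%, and in Sd10 3 of 5, against 25.4%. With 5 or 6 members to a cluster, these counts cannot be set apart from the background shares.

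Piwil1 was lower in KO in its own cluster, by 0.27 on the log2 scale in Sc2 (532 against 442 CPM, interval -0.33 to -0.21). In Sd1 the levels were alike (53.5 and 52.8 CPM, -0.02, -0.22 to 0.19). Tdrd9 was lower in KO by 0.21 in Sc2 (221 against 192 CPM, -0.30 to -0.11) and by 0.23 in Sd3 (82.7 against 70.7 CPM, -0.42 to -0.04). Some stage markers were also lower in KO Sc2, such as Dazl (221 against 126 CPM), Sycp1 (1366 against 1000 CPM) and Meiob (34.0 against 21.1 CPM). Of the 6 spermatogonial markers, 4 were lower in KO Sc2 and 2 (Stra8 and Dmrtb1) were higher. Of the 10 spermatocyte markers, 5 were lower and 5 higher there, with sums of 12891 and 12869 CPM. The part of these markers in the Piwil1 and Tdrd9 values was not tested. Tdrd1 in Sc2 was at 127 and 132 CPM, a log2 ratio of 0.06 (-0.06 to 0.18) that counting noise covers. Tdrd1 passed 1.5-fold in 4 of the 12 clusters read, each time higher in KO and on few UMIs. The ratio was 0.98 in Sc1 (0.057 to 1.98, 17 and 25 UMIs) and 2.55 in Sd7 (0.71 to 5.96, 2 and 16 UMIs), the highest of any member. The Sd7 value was 1.48 with a prior of 10 UMIs and 3.77 after thinning. In Sd8 the ratio was 0.74 (-0.60 to 2.31, 7 and 15 UMIs), and 0.31 after thinning. In Sd8, where Ddx4 passed 1.5-fold too, all 6 round spermatid markers were higher in KO (68.9 and 84.7 CPM summed). Of the 10 spermatocyte markers, 6 were higher and 4 lower there. The part of these markers in the Sd8 values was not tested.

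Ddx4 was higher in KO in 13 of 13 clusters. That count includes Sd6 to Sd10, where it was close to or below the medians of early markers. Its ratio was 0.68 in Sc1 (190.0 against 304 CPM, 0.40 to 0.96), 0.41 in Sd2 (268 against 355 CPM, 0.28 to 0.53), 0.20 in Sd1 (345 against 395 CPM, 0.12 to 0.27) and 0.02 in Sd4 (125 against 127 CPM, -0.14 to 0.19). The intervals of 7 clusters lay above 0. In Sd1 and in Sd2, 8 of the 10 spermatocyte markers were higher in KO, while their sums were 11513 and 11460 CPM in Sd1 and 10534 and 10382 CPM in Sd2. Of the 3397 genes read in all 13 clusters, 4.83% were higher in KO in each of them. After thinning all cells to 3000 UMIs, Ddx4 was higher in 12 of the 13 clusters. In Sc1, 7 of the 10 spermatocyte markers were higher in KO too, with sums of 12756 and 14745 CPM, and Hormad1 was at 1967 and 2726 CPM. The part of these markers in the Ddx4 and Tdrd6 values was not tested. The Sc1 value rests on 78 of 130 WT cells and 81 of 99 KO cells with a UMI, and the 5 cells with most Ddx4 UMIs held 41 of 194 UMIs in WT and 48 of 228 in KO.

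Tdrd6 was higher in KO in 12 of 13 clusters, beside 10.2% of the 3397 genes in at least 12, and the count includes Sg, Sc1 and late clusters where it is not separated from background. It was higher by 0.24 in Sc2 (298 against 351 CPM, 0.16 to 0.31), 0.20 in Sd1 (368 against 424 CPM, 0.13 to 0.28), 0.20 in Sd2 and 0.20 in Sd3. Of the 10 spermatocyte markers, 5 were higher in KO in Sc2, 8 in Sd1 and in Sd2 and 7 in Sd3. In Sd4, Tdrd6 was at 126 and 124 CPM (-0.03, -0.19 to 0.13). The ratio of 0.92 in Sg rests on 50 and 84 UMIs, of which 5 KO cells held 31, and turned to -0.19 when cells were thinned to 3000 UMIs. That of 2.04 in Sd10 rests on 4 and 25 UMIs (0.62 to 4.13) and was 0.67 after thinning. In Sd10, 5 of 6 round spermatid markers were higher in KO too (54.3 and 69.8 CPM summed). Of the 10 spermatocyte markers, 4 were higher and 6 lower there. The part of these markers in the Sd10 value was not tested.

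Mael was slightly lower in KO in 11 of 13 clusters, beside 10.8% of the 3397 genes in at least 11. It was lower by 0.06 in Sc2 (928 against 888 CPM, -0.11 to -0.02), 0.16 in Sd4 (684 against 612 CPM, -0.23 to -0.09) and 0.20 in Sd7 (288 against 251 CPM, -0.30 to -0.09). In Sd9 it was higher in KO by 0.42 (52.3 against 70.1 CPM, 0.095 to 0.76), with 137 and 179 UMIs. There it stood at 8.89% and 11.2% of its library mean, below the Sd9 medians of the spermatocyte (14.5% and 13.8%) and spermatogonial (16.0% and 18.4%) markers, so it is not separated from background. In Sd9 all 6 members were higher in KO, in a cluster where 60.8% of all genes read and 9 of 10 spermatocyte markers were. Of the 6 spermatogonial markers, 3 were higher and 3 lower in KO there. The part of such early transcripts in the Sd9 values was not tested. The Sd9 ratios were 0.98 for Tdrd9 (18 and 35 UMIs) and 1.38 for Tdrd1 (6 and 16 UMIs).

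**Figure D3:**
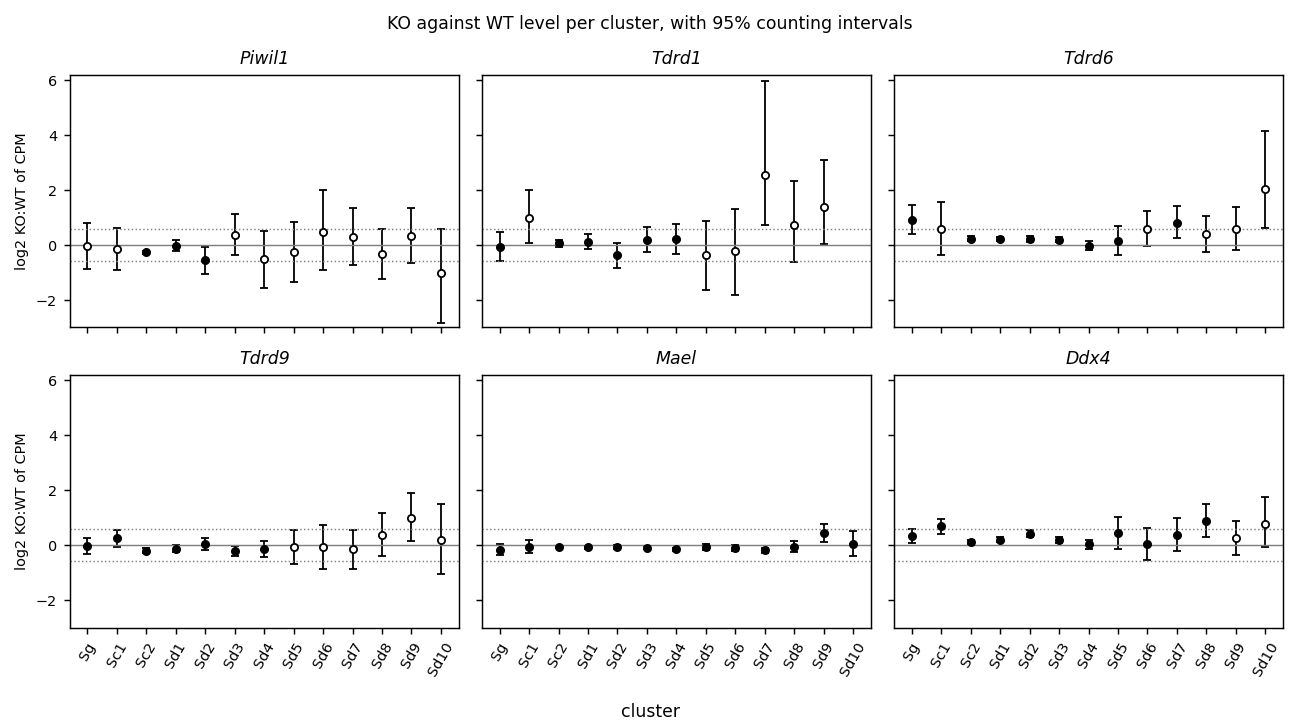
Log2 ratio of the KO to the WT level of each gene in each cluster, with 95% counting intervals, where at least 10 UMIs were counted. Filled points have at least 100 UMIs in both libraries together, open points fewer, and dotted lines mark 1.5-fold. From Sc2 to Sd6 all points lie within the dotted lines, and wide intervals are found in the late spermatid clusters.

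The summed level of the 6 genes was highest in Sc2, with 2398 CPM in WT (2362 to 2434) and 2318 CPM in KO (2292 to 2345). It was 1867 and 1906 CPM in Sd1, 1456 and 1461 CPM in Sd3, 565 and 547 CPM in Sd5, and 88.6 and 108 CPM in Sd10. The KO to WT ratio of the sum was -0.05 in Sc2 (-0.08 to -0.02), 0.03 in Sd1 (-0.0042 to 0.064), 0.01 in Sd3 (-0.04 to 0.05) and 0.49 in Sd9 (0.25 to 0.74). Mael made up most of the UMIs summed in each cluster from Sd2 on, so these sums describe Mael more than the set. The median log2 ratio of the members was -0.0031 in Sc2 and 0.05 in Sd1, beside -0.05 and -0.02 over all genes read. In Sd9 it was 0.50 beside 0.09, and in Sd10 0.18 beside 0.04.

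Of 30 other genes of the pathway listed by name, 10 had 1 possible row. Fkbp6, a co-chaperone, was highest in Sg (452 and 410.1 CPM) and Sc1 (401 and 389 CPM) and was at 16.6 and 17.0 CPM in Sd1. Tex15, a germ cell protein known from meiosis and from silencing in the fetal germ line, had 2 separate phases, with 852 and 904 CPM in Sc1, 8.72 and 6.45 CPM in Sc2 and 276 and 311 CPM in Sd3. Rnf17, a Tudor and RING protein, also dipped, with 359 and 409 CPM in Sc2, 155 and 207 CPM in Sd1 and 295 and 416 CPM in Sd3. Mybl1, the gene of A-MYB, was highest in Sd1 (159 and 184 CPM) after 136 and 146 CPM in Sc2 and 116 and 116 CPM in Sc1.

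Gtsf1, a zinc finger partner of PIWI proteins, and its relative Gtsf1l came late. Gtsf1 was highest in Sd5 (1580.5 and 1562 CPM), from which Sd4 did not stand apart, and Gtsf1l in Sd4 (1062 and 1044 CPM). Dnmt3l, a cofactor of DNA methylation, was highest in Sd3 (29.7 and 22.2 CPM). Ddx25, a testis helicase, was highest in Sd1 (918 and 969 CPM). Hsp90aa1, a chaperone used in loading PIWI proteins, was highest in Sc2 (5797 and 5267 CPM), and Kif17, a kinesin found at the chromatoid body, in Sd10 (142 and 132 CPM). Sd5 did not stand apart from Sd4 for Gtsf1l in either library. The same held for Sd2 and Sd1 of Ddx25 and for Sd9 and Sd10 of Kif17. For Dnmt3l, Sd4 did not stand apart from Sd3 in KO. Exons of Dnmt3l overlap those of Aire on the opposite strand, and the strand setting of the counting is not known. Exons of Kif17 overlap those of Sh2d5 on the same strand. In both places reads could come from either gene.

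**Figure D4:**
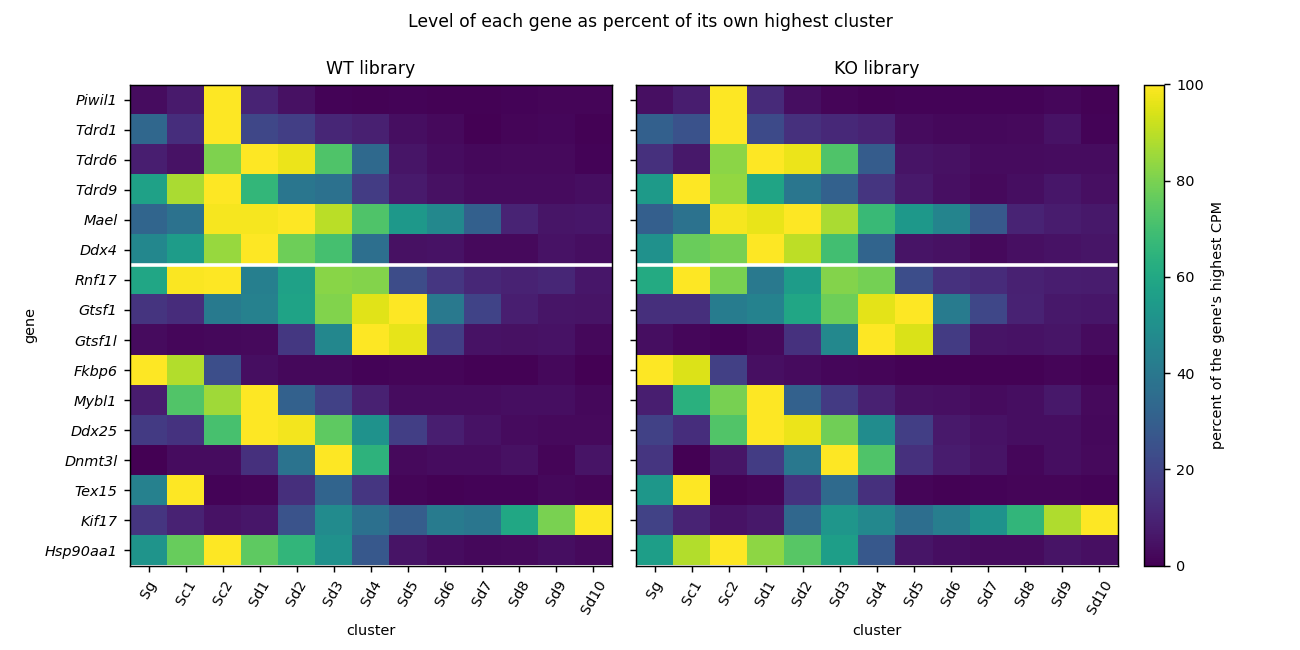
Level of each gene in each cluster as percent of the gene's own highest cluster (colour, 0 to 100), in the WT (left) and KO (right) library, with the 6 members above the white line and 10 other pathway genes below it. The order runs from Fkbp6 in Sg over Piwil1 in Sc2 and Tdrd6 and Ddx4 in Sd1 to Gtsf1 in Sd5 and Kif17 in Sd10. The highest cluster is the same in both libraries except for Tdrd9 and Rnf17 (Sc2 in WT, Sc1 in KO).

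Of the 123 values read for these 10 genes, 11 passed 1.5-fold between KO and WT (8.94%, beside 12.5% of all values). Rnf17 was higher in KO in 13 of 13 clusters, also after thinning and centring, with log2 ratios of 0.12 to 0.85 and intervals above 0 in 12 clusters. Mybl1 was higher in 13 of 13 too, but in 12 after centring and in 10 after thinning. A higher level in KO in all 13 clusters was found for 4.83% of the 3397 genes read in each of them. The levels of Rnf17 were 213 and 313 CPM in Sg (0.56, 0.35 to 0.76) and 295 and 416 CPM in Sd3 (0.50, 0.41 to 0.59), and 2 of its 13 values passed 1.5-fold. Of the 10 spermatocyte markers, 7 were higher and 3 lower in KO in Sg and in Sd3, and their part in these values was not tested. Fkbp6 was past 1.5-fold in 4 clusters, all lower in KO and all resting on 6 to 24 UMIs per library (Sd5, Sd6, Sd8 and Sd9). Its levels there, 1.67 to 9.16 CPM, lay around the early marker medians as percent of the library mean. These values are thus not separated from background. In WT Sd9, 1 cell held 7 and 5 cells held 17 of the 24 UMIs of Fkbp6. In Sd8 its ratio went from -0.74 to 0.06 when cells were thinned. In Sc2, with 774 and 998 UMIs, it was lower in KO by 0.47 (109 against 78.4 CPM, -0.61 to -0.34), within 1.5-fold. Gtsf1l in Sc2, with 150 and 151 UMIs, was lower in KO by 0.83 (21.1 against 11.9 CPM, -1.17 to -0.49). It stood there at 8.07% and 5.05% of its library mean, inside the range of the 14 spermatid markers (6.11% to 11.9% and 4.61% to 15.7%). All 6 round spermatid markers were lower in KO Sc2 as well, with sums of 58.0 and 34.9 CPM, so the value is not separated from background. Gtsf1 had ratios between -0.17 and 0.20 over the clusters, and between -0.12 and 0.54 after thinning.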

How the data were processed

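Per the paper's methods, the authors trimmed reads with fastp, aligned them with STAR 2.5.3a to mm10 with Ensembl 92 genes, assigned them to genes with featureCounts 1.6.2 and collapsed them by UMI. Values in the deposited matrix are raw UMI counts of the cells left after filtering in Seurat 3.2.3 by the authors, and the deposited cell table gives library, cluster and the percent of mitochondrial UMIs. The filter's limits, strand setting and doublet treatment are not given in the sources used here. No cell was removed and no doublet caller was run.

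The symbol list (25065 lines) is shorter than the matrix (26758 rows). The rows of 30 mitochondrial symbols were found from the mitochondrial percent, exact in 12408 of 12408 cells. A row was allowed to have no symbol if under 5 cells held a UMI of it, which contradicted none of 31 intervals between these rows, and symbols with 1 possible row were used (86.9% of UMIs). The rule on few cells is an assumption.

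UMIs were summed per library and cluster. Ratios have a prior of 1 UMI and were read from 10 UMIs on. Intervals are exact 95% Poisson, binomial (Clopper-Pearson) or conditional binomial, and cover counting error only. Members and gene lists were chosen with earlier results of these data known. The named genes are all members with 1 possible row, pathway genes past 1.5-fold in at least 3 clusters or with a described course, and the 3 genes nearest to each member. In simulated symbol lists, only rows seen in under 5 cells lost a symbol, and 100% of uniquely matched symbols were right. The matching used the same rule, so this result was fixed in advance and cannot check the rule. In Sc2, 14983 genes were simulated with counting noise alone, and some were changed 2-fold. Of these changed genes, 98.5% had the right sign. Python 3.11.15, numpy 2.4.6 and scipy 1.17.1 were used. Alternatives are given in the closing section.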

Additional observations from a re-analysis of the deposited data

How the results depend on the processing

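No paired analysis was possible because each genotype is 1 library. The count of member values past 1.5-fold, 12, was 22 when each cell was thinned to 3000 UMIs, 6 with a minimum of 50 UMIs and 4 with a minimum of 100 UMIs, the last chosen after the data were seen. Thinning leaves fewer UMIs per value and a higher minimum leaves fewer values. The ratio of the summed members in Sc2 was 0.00087 when centred on the median of all genes. With thinned cells it was 0.14 in Sd2, -0.024 in Sd4 and -0.092 in Sd10, and that of Tdrd6 in Sg was -0.19 in place of 0.92. The cause was not tested. If any row may lack a symbol, 2 of the members, Tdrd1 and Tdrd6, keep 1 possible row, and the values of the other 4 then rest on the rule. With rows seen in under 3 cells allowed, 12 of 31 intervals were contradicted, so that setting was not used. The highest cluster of Mael in WT moved to Sc2 or Sd1 under 3 of 4 settings, and those of the other members stayed. Few UMIs of the members were counted in late clusters (Tdrd1 in Sd10 had 1 and 2), and the smallest totals were those of Sc1, 1020887 UMIs in WT and 749010 in KO.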
